A study of Mus musculus with 12 samples.

Results

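Txnip, Arrdc4, Arrdc3, Mlxip, Mlx and Slc2a1 stand for a glucose-sensing circuit in mesenchymal mouse breast cancer cells: 3 alpha-arrestins, both subunits of a glucose-responsive transcription factor, and a glucose carrier. These 6 genes were taken by symbol from the 24454 genes of the expression table, and all 6 were among the 12502 genes that passed the filter on low values. They were chosen by their measured log2 fold change with siNrf2 in these libraries, where Txnip and Arrdc4 lay among the highest, and by their place in the pathway, so that response is given for them as a description without a test. RNA was sequenced from 3 cell lines that the labels call mesenchymal, PyMT-1099 LT and Py2T LT, which derive from MMTV-PyMT mice, and MT∆Ecad, a line named for its deletion of E-cadherin, which derives from MMTV-Neu mice; the labels give no further genotype. Cells of each line received a Dharmacon siRNA to Nrf2 (siNrf2) or a control without a target (siCtl) for 48 hours. Each of the 6 groups holds 2 replicates, 12 libraries in all. Every line grew in DMEM with fetal bovine serum and glutamine. Each line is a single line, no second siRNA or rescue is among the groups, and glucose was not varied.

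MondoA, the product of Mlxip, and its partner Mlx wait outside the nucleus until glucose 6-phosphate accumulates, and then bind carbohydrate response elements, which are paired E-boxes. Txnip and Arrdc4 are the best known genes under such elements. Txnip, an alpha-arrestin, binds thioredoxin and helps to take glucose carriers such as GLUT1, the product of Slc2a1, off the cell surface, so that a cell rich in glucose 6-phosphate takes up less glucose; Arrdc4 shares the second of these roles. Nrf2, encoded by Nfe2l2, drives the antioxidant genes, among them those for thioredoxin and its reductase.

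The 2 responsive genes are shown with the 250 bases before their start, because MondoA and Mlx are known to act on them through paired E-boxes. Whether the stretches marked here are those elements was not tested. The Txnip promoter lies at chr3:96557707-96557956 on the plus strand and that of Arrdc4 at chr7:68749239-68749488 on the minus strand, both RefSeq sequence on GRCm38.p6, printed 5′ to 3′. Capitals mark the best match to the paired E-box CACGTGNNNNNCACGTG and every CCAAT box, on either strand, the pentamer that NF-Y binds.
Txnip: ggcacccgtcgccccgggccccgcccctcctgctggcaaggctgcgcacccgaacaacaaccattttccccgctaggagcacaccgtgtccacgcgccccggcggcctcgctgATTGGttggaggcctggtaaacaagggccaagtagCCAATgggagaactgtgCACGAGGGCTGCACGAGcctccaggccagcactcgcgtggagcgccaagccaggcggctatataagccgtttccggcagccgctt
Arrdc4: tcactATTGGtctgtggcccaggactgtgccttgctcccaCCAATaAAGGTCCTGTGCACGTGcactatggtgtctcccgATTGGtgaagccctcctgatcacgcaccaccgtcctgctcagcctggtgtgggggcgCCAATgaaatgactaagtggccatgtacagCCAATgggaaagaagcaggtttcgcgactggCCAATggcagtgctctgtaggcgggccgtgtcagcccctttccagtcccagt

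The paired E-box reads the same on both strands and fixes 12 bases, so the best match of each of the 6 genes can be set side by side. Each line gives the match in the first start site that RefSeq lists, with capitals at the fixed positions that match the motif.
Txnip: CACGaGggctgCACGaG
Arrdc4: aAgGTcctgtgCACGTG
Arrdc3: CAaGaGccgggCgCGcG
Mlx: CACGTGactgagcCtcG
Mlxip: ggCcTGgctttCtCGTc
Slc2a1: gACGTGctcccCAgGcc

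Txnip came closest, with 2 mismatches in a match that starts 85 bases before the start site, a fit reached by 0.953% of the 32851 promoter windows of 300 bases (250 before to 50 after a start). Arrdc4 followed with 3 mismatches at 204 bases, which 8.56% of the windows reach or better. Arrdc3, Mlx and Slc2a1 had 4 mismatches, a level that 44.1% of the windows reach, and Mlxip had 5. An intact E-box, CACGTG, was in the windows of Arrdc4 and Mlx and is in 7.15% of all windows. The Arrdc4 window held 6 CCAAT boxes, a count found in 0.0791% of windows, and that of Txnip held 2; 11.7% of windows hold 2 or more. The core of an Nrf2 site, TGACNNNGC on either strand, was not in the Txnip window, was there 1 time in Arrdc4 and 3 times in Mlx, and occurs in 12.4% of all windows; 1 of the 3 copies in Mlx overlaps its E-box. A match of letters shows no binding, and its absence from these 300 bases says nothing of sites elsewhere.

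**Figure D1:**
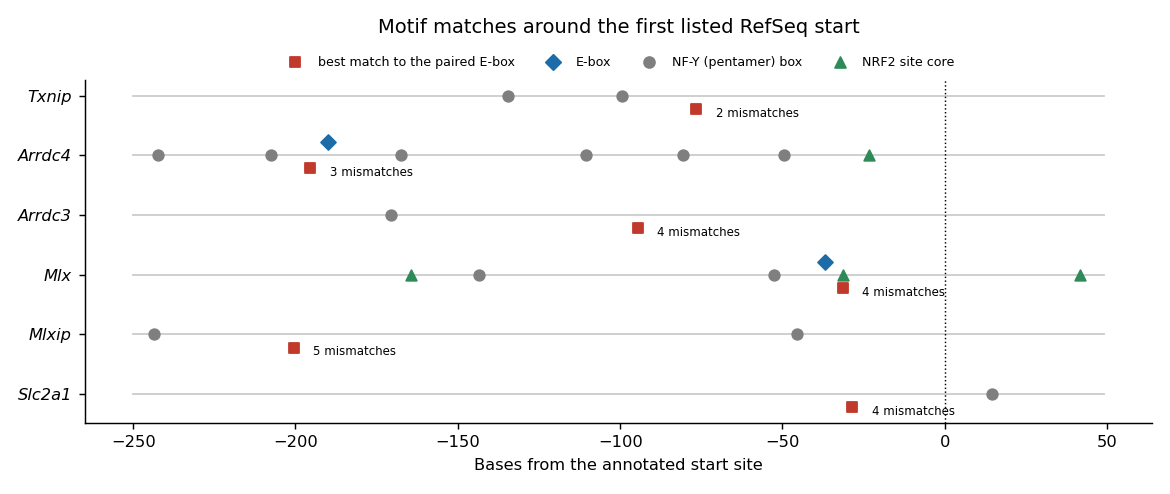
Motif matches in the window from 250 bases before to 50 after the first RefSeq start of each gene; the horizontal axis is the distance in bases from the start, and each symbol is the middle of a match. The best match to the paired E-box (square) has 2 mismatches in Txnip and 3 in Arrdc4, and the Arrdc4 window holds 6 NF-Y pentamers.

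The siRNA had its intended target. Nfe2l2 fell from 113 and 113 to 25.7 and 33.3 reads per 1000000 (CPM) in PyMT-1099 LT, from 89.7 and 83.6 to 21.9 and 24.5 in Py2T LT, and from 208 and 209 to 50.8 and 54.0 in MT∆Ecad. The fall was 3.83-fold, 3.73-fold and 3.97-fold of the mean CPM, and its limma adjusted p for a difference between lines was 0.997. The libraries held 27088970 to 37070635 reads, so 1 CPM stands for at least 27.1 reads. All 8 mesenchymal marker genes reached 1 CPM in Py2T LT and MT∆Ecad and 6 did in PyMT-1099 LT, with summed levels of 9230 to 15592 CPM. Snai2 and Twist1 were at 0 reads in the libraries of PyMT-1099 LT. Cdh1, which encodes E-cadherin, was at 47.8 to 62.1 CPM in PyMT-1099 LT, 12.5 to 18.1 in Py2T LT and 0.315 to 0.639 in MT∆Ecad. Of the markers of leukocytes, endothelium and adipocytes, 3 of 11 reached 1 CPM; the highest, Cdh5, lay at 90.6 and 88.0 CPM with siCtl and 124 and 122 with siNrf2 in PyMT-1099 LT, while the endothelial genes Kdr and Pecam1 stayed at or under 0.205 CPM. In bulk RNA, fewer cells of a type and less RNA per cell cannot be told apart.

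The RNA of the glucose sensor was present in every line, while its protein is not among these data. Mlxip, which encodes MondoA (Entrez 208104; GRCm38 chromosome 5, 123394521 to 123457932), lay at 76.5 and 80.4 CPM in siCtl libraries of PyMT-1099 LT, 107 and 114 in Py2T LT and 65.8 and 67.2 in MT∆Ecad. In siNrf2 libraries it lay at 76.2 and 77.0, at 114 and 111, and at 63.6 and 66.0 CPM. The siNrf2 libraries overlap the siCtl libraries in each line, and the log2 fold change averaged over the lines was −0.02 (SE 0.04). All log2 fold changes are of CPM + 1, a scale that understates the changes of low genes, and SE is limma's standard error.

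Mlx, the partner without which MondoA does not bind DNA (Entrez 21428; chromosome 11, 101086707 to 101092207), lay at 47.8 and 44.9 CPM with siCtl in PyMT-1099 LT, 46.9 and 50.6 for Py2T LT and 31.7 and 32.3 in MT∆Ecad. With siNrf2 it lay at 51.9 and 47.7, at 58.6 and 56.3, and at 32.8 and 33.6 CPM. Its average log2 fold change was 0.13 (SE 0.05), with the largest value, 0.23 (SE 0.09), in Py2T LT, where the groups do not overlap. The groups do not overlap in MT∆Ecad either, where the ratio of mean CPM was 1.04. With 2 libraries a group, groups can stand apart at small changes, and the share of all genes that do so is not given here. Per kb of exon, Mlx exceeded Mlxip in all 12 libraries, by 1.82 to 2.84 times.

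Mlxipl encodes ChREBP, the paralog of MondoA that senses glucose in liver and fat (Entrez 58805). It had 4 reads over all libraries, all in Py2T LT, and at most 0.0558 CPM. In PyMT-1099 LT and MT∆Ecad it had 0 reads, which allows up to 0.111 CPM in the shallowest library.

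Txnip changed most of the 6 when Nrf2 was knocked down. Txnip (Entrez 56338; chromosome 3, 96557957 to 96561857) lay at 46.5 and 31.8 CPM with siCtl and 83.2 and 77.4 with siNrf2 in PyMT-1099 LT. In Py2T LT the values were 25.7 and 18.2 against 42.2 and 31.0 CPM, and in MT∆Ecad 6.67 and 7.86 against 30.8 and 56.7. In each line both siNrf2 libraries lie above both siCtl libraries. The ratio of mean CPM was 2.05 for PyMT-1099 LT, 1.67 for Py2T LT and 6.02 for MT∆Ecad, and the average log2 fold change was 1.38 (SE 0.17), the highest of the 12502 genes tested, of which limma called 12.3%. In MT∆Ecad it was 2.38 (SE 0.30), second among all genes, and the ratio within a replicate number was 4.62 and 7.22.

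Arrdc4, the nearest relative of Txnip in its response to glucose (Entrez 66412; chromosome 7, 68736994 to 68749238), followed at lower levels. With siCtl it lay at 9.61 and 10.7 CPM in PyMT-1099 LT, 5.03 and 4.75 for Py2T LT and 4.41 and 5.39 in MT∆Ecad. With siNrf2 it lay at 14.5 and 17.2, at 5.97 and 6.70, and at 11.2 and 18.5 CPM. The groups do not overlap in any line, and the ratios of mean CPM were 1.56, 1.30 and 3.04. Its average log2 fold change of 0.77 (SE 0.12) stood at place 11 of all tested genes; that of MT∆Ecad was 1.39 (SE 0.20).

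Arrdc3, an alpha-arrestin known for the turnover of beta-adrenergic receptors and integrin beta 4 (Entrez 105171; chromosome 13, 80883384 to 80896042), had another distribution. It lay at 7.57 and 7.63 CPM with siCtl and 7.89 and 10.8 with siNrf2 in PyMT-1099 LT, and at 6.75 and 10.2 against 6.43 and 11.3 in Py2T LT. In MT∆Ecad it lay at 48.4 and 41.1 against 82.1 and 73.2 CPM. Its groups do not overlap in PyMT-1099 LT and MT∆Ecad, and the ratios of mean CPM were 1.23, 1.05 and 1.74. In Py2T LT the log2 fold change of 0.04 (SE 0.25) turned to −0.32 without siNrf2 replicate 2.

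Slc2a1, the gene of the carrier that Txnip removes from the membrane (Entrez 20525; chromosome 4, 119108745 to 119137330), lay at 162 and 159 CPM with siCtl in PyMT-1099 LT, 319 and 274 for Py2T LT and 157 and 160 in MT∆Ecad. With siNrf2 it lay at 172 and 169, at 388 and 299, and at 156 and 150 CPM. The average log2 fold change was 0.08 (SE 0.07), and the 3 lines ranged from −0.05 to 0.20. Its groups do not overlap in PyMT-1099 LT and MT∆Ecad, at ratios of mean CPM of 1.07 and 0.96. Slc2a1 and the regulators Mlx and Mlxip thus varied by at most 1.18-fold in mean CPM in any line, against 1.67-fold or more for Txnip.

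**Figure D2:**
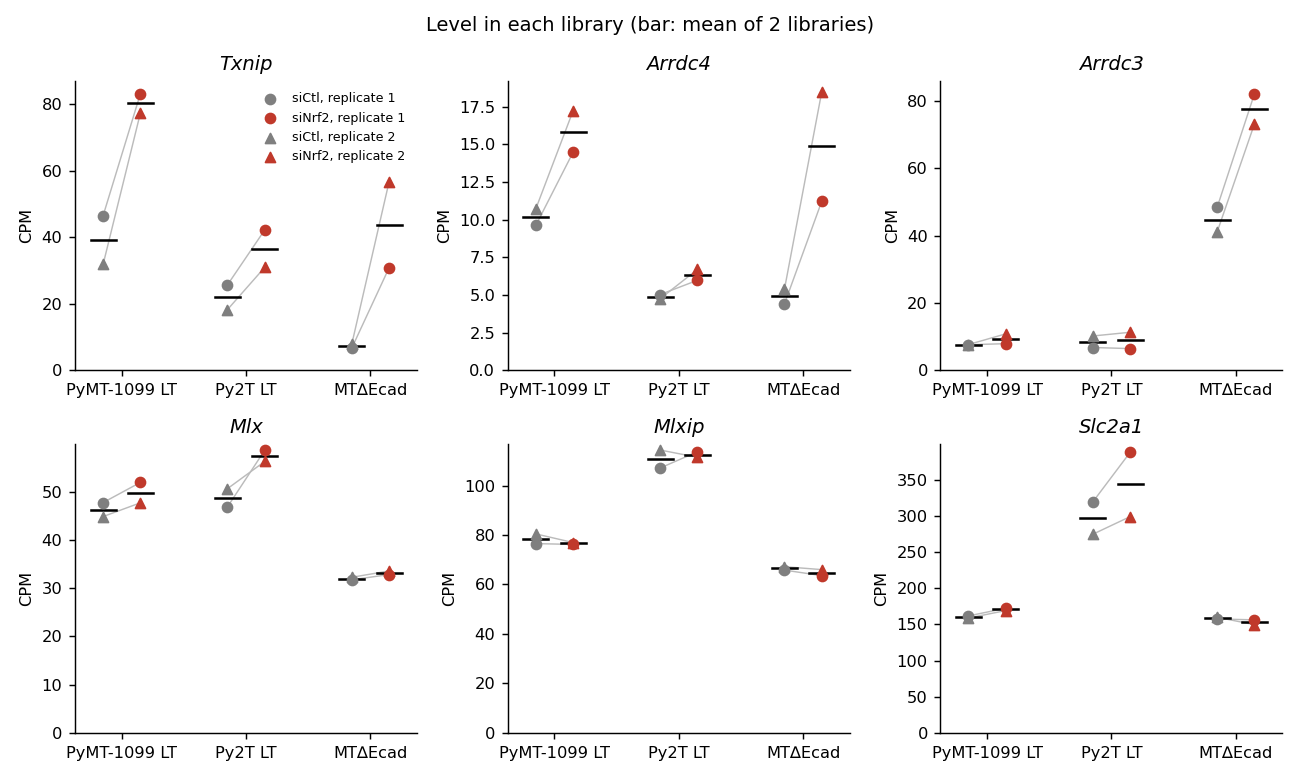
CPM of each gene (vertical axes start at 0) in the 12 libraries, by line; grey symbols are siCtl and red symbols siNrf2, circles replicate 1 and triangles replicate 2, black bars the mean of 2 libraries, and thin lines join libraries of the same number. Txnip and Arrdc4 are higher in both siNrf2 libraries of each line, Arrdc3 stands apart in MT∆Ecad, and the lower 3 panels change little.

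Per kb of exon, the carrier gene was the most abundant of the 6 in each group, with 43.6 to 97.9 CPM per kb for Slc2a1, followed by Mlx with 16.01 to 28.7, save that Txnip reached 25.7 against 24.9 for Mlx in siNrf2 cells of PyMT-1099 LT. Txnip exceeded Arrdc4 per kb in all 12 libraries. The excess was 1.96 and 1.89 times with siCtl and 3.55 and 3.97 times with siNrf2 in MT∆Ecad, and 3.84 to 9.14 times in the libraries of the other lines. Txnip also exceeded Arrdc3 in the other lines, by 3.6 to 21.2 times, while in siCtl libraries of MT∆Ecad it stood at 0.277 and 0.384 of the Arrdc3 level.

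In cells with control siRNA the 6 genes already set the lines apart. Txnip was lowest in MT∆Ecad, where Nfe2l2 was highest, and PyMT-1099 LT had more of both than Py2T LT. A link between the levels of these genes across the 3 lines was not tested. Txnip was 5.39-fold lower in MT∆Ecad than in PyMT-1099 LT (log2 difference −2.26, 95% interval −2.93 to −1.59, limma adjusted p = 0.000127). It was 3.02-fold lower than in Py2T LT (−1.46, −2.13 to −0.79, adjusted p = 0.0024). It was 1.78-fold lower in Py2T LT than in PyMT-1099 LT (−0.80, adjusted p = 0.0443), a call that did not hold without the filter on low values (0.0639). That call was also lost without siCtl 1 (adjusted p = 0.25), siNrf2 1 (0.0571) or siNrf2 2 (0.057) of PyMT-1099 LT, without siCtl 2 of Py2T LT (0.227), and without siCtl 1 (0.0611) or siCtl 2 (0.0612) of MT∆Ecad. Arrdc4 did not share the difference between MT∆Ecad and Py2T LT, which was −0.00 (−0.46 to 0.46, adjusted p = 1). It was 2.08-fold lower in each of them than in PyMT-1099 LT (adjusted p = 0.00342 for MT∆Ecad and 0.0036 for Py2T LT).

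Arrdc3 ran the opposite way. MT∆Ecad had 5.89 times the level of PyMT-1099 LT (log2 difference 2.41, 1.83 to 2.98, limma adjusted p = 2.77e-05) and 5.29 times that of Py2T LT (2.29, 1.72 to 2.87, adjusted p = 4.55e-05). Py2T LT and PyMT-1099 LT differed by 0.11 (−0.46 to 0.69, adjusted p = 0.731). Among the regulators, Mlx was lower in MT∆Ecad than in PyMT-1099 LT (−0.52, adjusted p = 0.000587) and Py2T LT (−0.59, adjusted p = 0.000279). Mlxip was highest in Py2T LT, above PyMT-1099 LT by 0.49 (adjusted p = 0.00032) and above MT∆Ecad by 0.73 (adjusted p = 2.23e-05). Its smaller difference between MT∆Ecad and PyMT-1099 LT (−0.24, limma adjusted p = 0.0203) was not called by edgeR (0.0695) or DESeq2 (0.0888), nor without siCtl 2 of PyMT-1099 LT (0.112) or siCtl 1 (0.0924) or 2 (0.0619) of MT∆Ecad. Slc2a1 was 1.85-fold higher in Py2T LT than in PyMT-1099 LT (adjusted p = 0.000174) and 1.87-fold higher than in MT∆Ecad (adjusted p = 0.000165), while the latter lines differed by −0.01 (−0.29 to 0.26, adjusted p = 0.937).

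Differences between the lines were the rule in these libraries. Of all tested genes 57.6% were called between MT∆Ecad and PyMT-1099 LT, 54.4% between MT∆Ecad and Py2T LT and 55.6% between Py2T LT and PyMT-1099 LT, against 5, 5 and 4 of the 6 genes. So few genes cannot stand out by these counts. The siCtl libraries also enter each siNrf2 difference, on which the genes were chosen. A low siCtl level raises that difference, so the comparisons of siCtl libraries are not independent of the choice. Their p-values are not adjusted for it.

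With siNrf2 the order of the lines for Txnip was no longer that of the control cells. PyMT-1099 LT kept the highest mean (80.3 ± 4.11 CPM, SD, n = 2), MT∆Ecad came next (43.8 ± 18.3) and Py2T LT last (36.6 ± 7.96), and the libraries of the latter lines overlap. The highest mean was 2.19 times the lowest, against 5.39 times with siCtl. For Arrdc4 this span was 2.08-fold with siCtl and 2.5-fold with siNrf2, and for Arrdc3 it was 5.89-fold and 8.78-fold. These spans were not tested.

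Measured per kb of exon, the alpha-arrestin family had a different leading gene in each line. In siCtl libraries of PyMT-1099 LT Txnip made up 54.2% and 41.8% of the summed alpha-arrestin level. In Py2T LT Arrdc1, a member known for budding of vesicles at the plasma membrane, led with 41.2% and 43.4%, above Txnip with 39.8% and 32.9%. In MT∆Ecad Arrdc3 led with 52.4% and 46.4%, and Txnip held 14.5% and 17.8%. With siNrf2 Txnip held 62.8% and 60.9% in PyMT-1099 LT and led in Py2T LT too, with 49.7% and 44.2%. In siNrf2 libraries of MT∆Ecad Arrdc3 led in replicate 1 (43.6% against 32.9% for Txnip) and Txnip in replicate 2 (45.7% against 29.4%). The summed level of MT∆Ecad was 14.7 and 14.1 CPM per kb with siCtl and 30.1 and 39.8 with siNrf2, between the siCtl (27.5 and 24.4) and siNrf2 libraries (42.5 and 40.7) of PyMT-1099 LT. Arrdc5 had no read in any library. The shares take every exon of a gene as its length and so depend on the annotation.

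**Figure D3:**
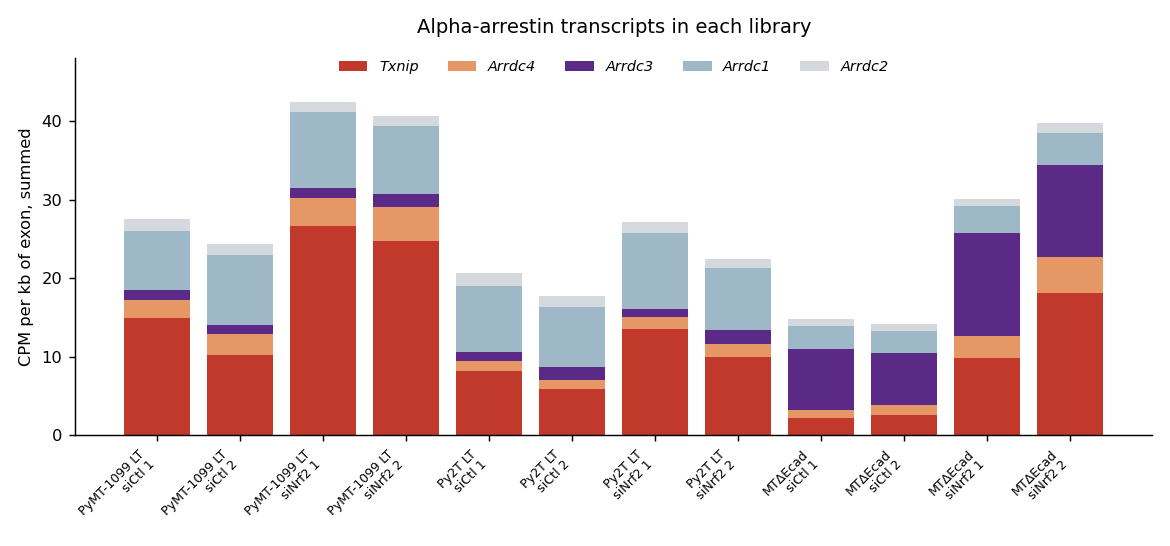
Summed level of the alpha-arrestins in each library in CPM per kb of exon (vertical axis), stacked by gene; bars are single libraries, named under the horizontal axis. The Txnip part is smallest in the siCtl bars of MT∆Ecad (14.5% and 17.8%), where Arrdc3 is the largest part.

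The siNrf2 effect was then set side by side across the lines. Since the genes were chosen on that effect in these libraries, its differences between lines are given with 95% intervals and without a test. The intervals are not adjusted for that choice, so whether they hold 0 is not read as a test. For Txnip the effect in MT∆Ecad was above that in Py2T LT by 1.66 on the log2 scale (0.72 to 2.61) and above that in PyMT-1099 LT by 1.34 (0.39 to 2.29). Py2T LT minus PyMT-1099 LT was −0.33 (−1.27 to 0.62). The size varied with the siNrf2 libraries of MT∆Ecad, which lay at 30.8 and 56.7 CPM: without replicate 1 the difference from Py2T LT was 2.09, and without replicate 2 it was 1.23.

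For Arrdc4 the effect in MT∆Ecad was above that in Py2T LT by 1.08 (0.43 to 1.73) and above that in PyMT-1099 LT by 0.80 (0.15 to 1.45). Without siNrf2 replicate 1 of MT∆Ecad the difference from PyMT-1099 LT was 1.14, and without replicate 2 it was 0.47. Arrdc3 had 0.75 (−0.07 to 1.56) and 0.53 (−0.28 to 1.35) for the same pairs. Mlx, Mlxip and Slc2a1 had intervals for MT∆Ecad minus PyMT-1099 LT of −0.32 to 0.22, −0.24 to 0.23 and −0.53 to 0.24.

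**Figure D4:**
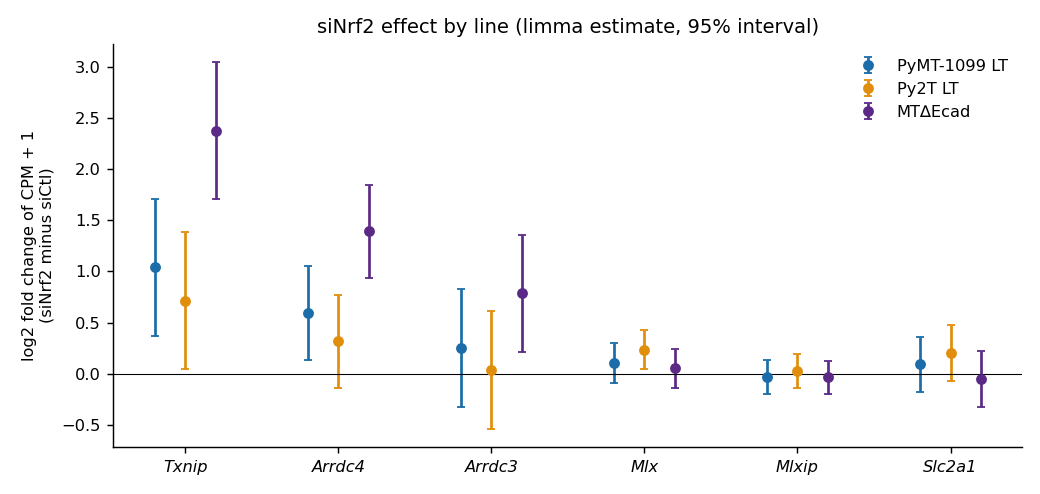
siNrf2 effect on each gene in each line as a log2 fold change of CPM + 1 (vertical axis), points being limma estimates from 2 libraries a group and bars 95% intervals. Estimates for Txnip run from 0.72 in Py2T LT to 2.38 in MT∆Ecad, and those of Mlxip from −0.04 to 0.02.

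Txn1, the gene of the thioredoxin that Txnip binds, was lower with siNrf2 on average over the lines (log2 fold change −0.27, limma adjusted p = 0.0104), and by line it was called in MT∆Ecad (−0.53, limma adjusted p = 0.00374). There it lay at 459 and 429 CPM with siCtl and 317 and 296 with siNrf2. In PyMT-1099 LT it lay at 448 and 446 against 403 and 400 CPM (−0.15, limma adjusted p = 0.6). In Py2T LT it lay at 343 and 322 against 288 and 327 CPM (−0.11, limma adjusted p = 1), and the groups overlap. Per kb of exon, Txnip stood at 0.0049 and 0.00617 of the Txn1 level in siCtl libraries of MT∆Ecad and at 0.0328 and 0.0645 with siNrf2. In PyMT-1099 LT it went from 0.0349 and 0.024 to 0.0695 and 0.0651, and in Py2T LT from 0.0252 and 0.0191 to 0.0493 and 0.0319. Txnip was chosen for its rise in these libraries, so the shift of this ratio is a description only. Thioredoxin transcripts stayed far above those of Txnip throughout.

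The other genes of the network were taken from 9 lists, 86 tested genes outside the 6. On average over the lines 5 were called higher and 7 lower with siNrf2, 13.95% in all, where 12.3% of all tested genes were called; their median log2 fold change was −0.00, against −0.01 for all genes. With the replicate block 16 were higher and 21 lower, and 40.0% of all genes were called. The 5 that rose were Gys1, glycogen synthase (0.39, limma adjusted p = 0.00322), Mxd1 and Mxd4, repressors that share the partner Max with Myc (0.51, 0.0145, and 0.75, 0.0169), Slc2a8, an intracellular glucose carrier (0.38, 0.0315), and the hexokinase Hk2 (0.23, 0.049). The 7 that fell were Txnrd1, thioredoxin reductase (−0.55, limma adjusted p = 0.00157), Txn1, the pentose phosphate enzymes G6pdx (−0.26, 0.0187) and Pgd (−0.29, 0.0236), the beta-arrestin Arrb2 (−0.23, 0.0226) and the AMPK subunits Prkag2 (−0.28, 0.0322) and Prkag3 (−0.22, 0.0173). Prkag3 had a mean of 0.575 CPM and was near 0 outside MT∆Ecad.

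Of the 17 other tested genes known as targets of MondoA or ChREBP, Hk2 was the 1 called on average by limma, where 12.3% of all genes were. There edgeR called 0, DESeq2 1 and limma with the replicate block 7, where the block called 40.0% of all genes. An unadjusted p under 0.05 by limma was reached by 5, and the median was −0.02. Pklr was at 0 CPM outside PyMT-1099 LT, Rgs16 near 0 outside Py2T LT and Pdk4 near 0 outside MT∆Ecad. Averages over the lines understate a change of such genes. In MT∆Ecad limma called 4 of the 17, where 17.3% of all genes were called, edgeR 3, DESeq2 2 and limma with the block 6. Scd1, a fatty acid desaturase, was higher (0.65, limma adjusted p = 0.0429), and Pfkfb3 (−0.81, 0.00394), glycerol phosphate dehydrogenase Gpd1 (−0.46, 0.0346) and malic enzyme Me1 (−0.32, 0.0472) were lower. Mxd4 had log2 fold changes of 1.38 in MT∆Ecad, where its mean went from 12.3 to 33.8 CPM, against 0.50 for PyMT-1099 LT and 0.35 for Py2T LT. Of the 4 alpha- and beta-arrestins outside the 6, Arrb2 was the 1 called on average, while 2 were called with the block. Arrdc1 had 0.20 (limma adjusted p = 0.137) and Arrdc2 −0.03 (limma adjusted p = 0.855). Of the 7 WW-domain ubiquitin ligases, the Itch family that binds alpha-arrestins, limma called 0 on average, with 2 at an unadjusted p under 0.05. For these edgeR called 0, DESeq2 1 and limma with the block 2. Of 10 other transcription factors of the Txnip promoter limma, edgeR and DESeq2 called 0, with 2 at an unadjusted p under 0.05 by limma. With the block limma called 3 of them. The NF-Y subunits Nfya, Nfyb and Nfyc had −0.04, −0.28 and −0.14. In MT∆Ecad limma called 1 of these 10 factors and 1 of the 7 ligases, each lower, where 17.3% of all genes were called. For both lists edgeR and DESeq2 called 0 there, and limma with the block 2 and 3. Of the 5 glucose carriers outside the 6, limma called 2 higher in MT∆Ecad, edgeR 0, DESeq2 1 and limma with the block 3.

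Between lines, the siNrf2 effect differed by limma's F test for 3 of the 86 genes, where 2.18% of all genes were called. Among the 3, Prkag3 was near 0 outside MT∆Ecad, so a fall of it could not show in the other lines. By line, limma called 0 of the 86 genes in PyMT-1099 LT (0.52% of all genes) and likewise 0 for Py2T LT (0.152% of all). An unadjusted p under 0.05 was reached by 8 and 3 of them, and edgeR and DESeq2 called 0 in either line. With the replicate block, however, limma called 8 of the 86 for PyMT-1099 LT and 1 for Py2T LT. For MT∆Ecad edgeR called 13 of the 86, DESeq2 16 and limma with the block 40. The share of all genes that the block called in single lines is not given here. By limma without the block 9 were higher in MT∆Ecad and 12 lower, 24.4%, where 17.3% of all genes were called. The number called higher was 2 without siCtl 1 or siNrf2 2 of MT∆Ecad, and 5 without siNrf2 1 of MT∆Ecad or either siCtl library of PyMT-1099 LT. The number called lower was 5 without siCtl 1, 6 without siNrf2 2 and 7 without siCtl 2 or siNrf2 1 of MT∆Ecad. For the average, the number called higher was 2 without siCtl 2 of Py2T LT or siCtl 1 or siNrf2 2 of MT∆Ecad. It was 3 without siCtl 1 or siNrf2 1 of PyMT-1099 LT or siNrf2 1 of Py2T LT or MT∆Ecad, and 10 without siNrf2 2 of Py2T LT. The number called lower was 3 without siCtl 1 of Py2T LT or MT∆Ecad and 4 without siCtl 1, siCtl 2 or siNrf2 2 of PyMT-1099 LT or siNrf2 1 of MT∆Ecad. Summed marker levels differed between siRNA groups too. Summed mesenchymal markers ran from 10656 to 11153 CPM with siCtl and from 14797 to 15592 with siNrf2 in MT∆Ecad, and from 9230 to 9459 against 9922 to 10391 in PyMT-1099 LT. Py2T LT had 10630 to 11454 against 11551 to 11885. Members of this sum moved unlike each other as well. In MT∆Ecad Fn1 lay at 5248 and 5690 CPM with siCtl against 8807 and 9687 with siNrf2, the largest rise of them. Zeb2 went the other way there, at 69.8 and 47.3 against 44.1 and 38.6 CPM. Of the 8 epithelial markers 3 reached 1 CPM in MT∆Ecad, namely Krt8, Krt18 and Krt14, with Esrp1 at 0 reads there. Their sum ran from 1125 to 1230 CPM against 1285 to 1293, with members on opposite sides: Krt14 lay at 142 and 123 against 47.4 and 50.1 CPM, and Krt18 at 212 and 232 against 298 and 297. In PyMT-1099 LT, where 4 of 8 reached 1 CPM, the epithelial sum ran from 3770 to 4373 against 4534 to 5404 CPM, and in Py2T LT, with 6 of 8, from 2573 to 3042 against 2817 to 3598, where the groups overlap. The part of these markers in the results was not tested.

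**Figure D5:**
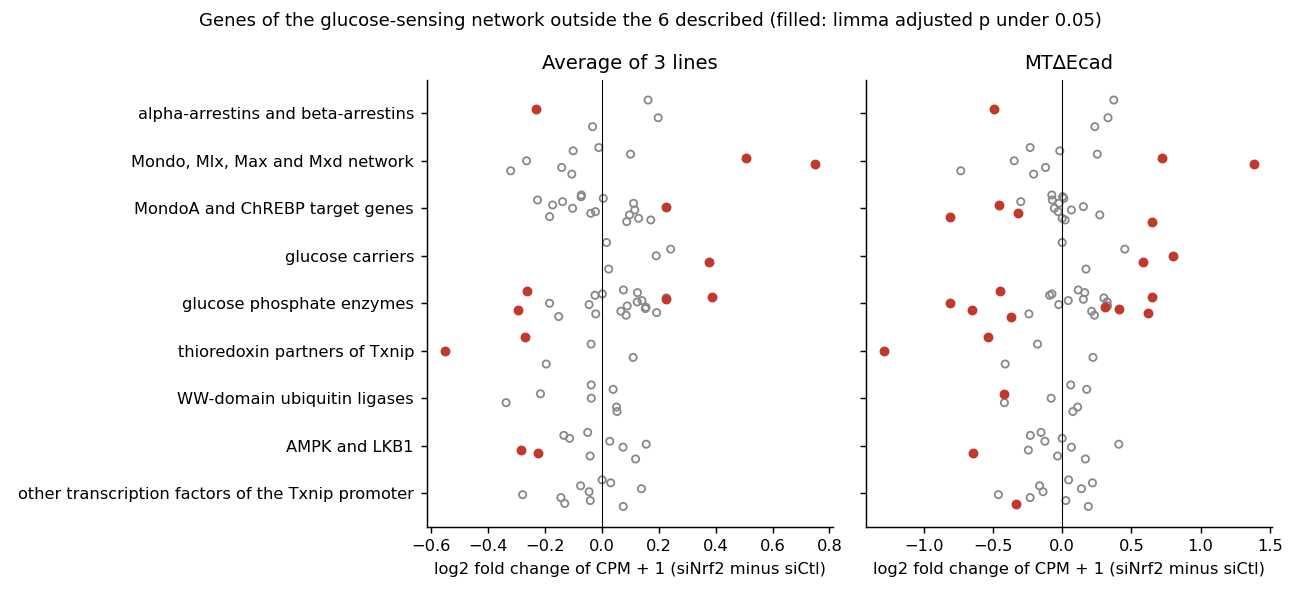
siNrf2 effect (horizontal axis, log2 fold change of CPM + 1) on each of the 86 tested network genes by list, averaged over the lines and in MT∆Ecad; each circle is a gene, filled in red where limma's adjusted p is under 0.05, and genes in more than 1 list appear in each. Filled circles lie on both sides of 0, with 5 genes higher and 7 lower on average.

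The control cells differed between lines for the network genes too. Of the 86, 61 were called between MT∆Ecad and PyMT-1099 LT (27 higher and 34 lower in MT∆Ecad), 55 between MT∆Ecad and Py2T LT and 56 between Py2T LT and PyMT-1099 LT. These are 70.9%, 63.95% and 65.1% of the 86, beside 57.6%, 54.4% and 55.6% of all tested genes. MondoA and ChREBP target genes had a median of −0.78 in MT∆Ecad against PyMT-1099 LT, with 5 higher and 10 lower of 17, while all tested genes had a median of −0.05. Against Py2T LT their median was −0.02, with 5 higher and 6 lower.

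Other genes with a close match to the paired E-box changed in both directions. Outside the 6 genes, 152 tested genes had a promoter window with at most 2 mismatches. On average over the lines 11 of them (7.24%) were called higher and 13 (8.55%) lower with siNrf2, and 5.99% of all tested genes were higher and 6.26% lower. Their median log2 fold change was 0.01.

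Txnip and Arrdc4 shared the siNrf2 split but not always the order of replicates. Of the 2 libraries in a group, the one with more Txnip had less Arrdc4 in PyMT-1099 LT with siCtl and with siNrf2, and in Py2T LT with siNrf2. With the mean of each line removed, log2(CPM + 1) of the genes had a Pearson r of 0.949 over the 12 libraries, place 57 among the 10847 genes with a mean of at least 2 CPM that were compared with Txnip; seen from Arrdc4, Txnip stood at place 20. The r with Txnip was 0.565 for Arrdc3, 0.514 for Mlx, 0.211 for Slc2a1 and −0.37 for Mlxip. The points share the siNrf2 split, on which both genes were chosen, and the depth of their libraries, so r is a description. The genes most like Txnip were Fam234a (0.981), Adamtsl4, an extracellular matrix protein (0.976), the lysosomal genes Smpd1 (0.976) and Pld3 (0.976), and H2-T10 (0.976), which belongs to a family of near copies between which reads could be split. Those least like it were Ppl, periplakin (−0.981), Paxip1 (−0.981) and the mismatch repair gene Msh6 (−0.976). Arrdc4 was most like Ces1a (0.969), also of a gene family with near copies, Sash1 (0.968), Chfr (0.967), Stk25 (0.963) and the growth factor receptor gene Pdgfra (0.963).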

How the data were processed

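Total RNA was depleted of ribosomal RNA, made into stranded libraries and sequenced as single reads of 81 nt, per the labels' protocols. The submitters' processing notes name STAR and the mm10 genome. The counting tool, the annotation and the strand setting are not given in the sources used here. The authors deposited CPM for 24454 Entrez IDs, and each column sums to 1000000. All values came out as whole reads within 0.01, which gave 27088970 to 37070635 reads a library; intervals and the limit of 3 reads for a count of 0 cover counting error only. Symbols were matched for 24374 IDs through RefSeq (GRCm38.p6), and exon lengths are unions over GENCODE M21 transcripts, on the same build.

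A gene was tested where 2 or more libraries reached 1 CPM (12502 genes). limma 3.58.1 (R 4.3.3) fitted log2(CPM + 1) with 6 group means, a variance trend and 6 residual degrees of freedom. Tests are two-sided, adjusted by Benjamini-Hochberg across the whole set, and called under 0.05. The labels call the replicates biological but name no cultures, so the p-values reflect only how far these libraries scatter, which may be technical. Same-numbered siCtl and siNrf2 libraries deviated together from their group means (r = 0.778 for PyMT-1099 LT, 0.846 for Py2T LT and 0.625 for MT∆Ecad), so the number was taken to pair them. Blocked counts stand beside some counts of network genes. All other counts, and every SE, interval and p-value of a siNrf2 effect, are those of the main fit, which ignores this pairing. On average over the lines it called 12.3% of all genes, against 40.0% with the block, which leaves 3 residual degrees of freedom. A gene that the main fit did not call is thus not shown to be unchanged. Across lines, same-numbered libraries of PyMT-1099 LT and Py2T LT deviated together (r = 0.592 and 0.792), and those of MT∆Ecad did not follow either (−0.114 to −0.291); the main fit has no block, and the siCtl comparisons were also fitted with the number as a block over the siCtl libraries. Alternatives were pseudocounts of 0.1 and 5, no filter, a filter at 5 CPM, edgeR 4.0.16 and DESeq2 1.42.0 on the recovered reads, the block, and leaving out each library. The fit was tested on simulated data.

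The 6 genes, the lists and the tests were chosen with earlier results of these data known. A test of the siNrf2 effect between lines had been planned for the 6 genes and is not used for them, because that effect chose them. Named besides the 6 are Nfe2l2, Mlxipl, up to 4 called genes of each list by average change, and the genes most and least like Txnip and most like Arrdc4; markers, Arrdc1, Arrdc2, Arrdc5, the NF-Y genes and Scd1, Pfkfb3, Gpd1 and Me1 were named after their values were seen. Promoter windows come from RefSeq (GRCm38.p6) and were matched by symbol for all 6 genes.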

Additional observations from a re-analysis of the deposited data

Results flagged for a closer look

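The siNrf2 effect differed between the lines by limma's F test for 3 genes of the network. Txnrd1, thioredoxin reductase, had log2 fold changes of −1.28 in MT∆Ecad, against −0.21 for PyMT-1099 LT and −0.16 for Py2T LT (adjusted p = 0.00932). Pfkfb3, an enzyme that sets the level of the glycolytic activator fructose 2,6-bisphosphate, had −0.81, 0.10 and 0.16 in that order (adjusted p = 0.0389). Prkag3, an AMPK subunit, had −0.64, −0.03 and 0 (adjusted p = 0.0317), at 2.31 and 1.12 CPM in MT∆Ecad with siCtl and siNrf2 (means of 2 libraries) and at or near 0 elsewhere. A gene near 0 in the other lines cannot fall there, so the F test of Prkag3 says little beyond where it is expressed. By line, Txnrd1 was called in MT∆Ecad (limma adjusted p = 0.000237) and not in PyMT-1099 LT (0.534) or Py2T LT (1).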

How the results depend on the processing

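With 2 libraries a group, calls rest on few degrees of freedom. For Txnip and Arrdc4 the siNrf2 and siCtl libraries do not overlap in any line. Leaving out a library or changing the pseudocount therefore could not turn the sign of their siNrf2 difference. The kept sign is no test of it, and only the size is of use here. In MT∆Ecad the log2 fold change of Txnip was 1.94 with a pseudocount of 5 and 1.95 to 2.81 with single libraries left out; that of Arrdc4 was 0.98 with a pseudocount of 5, 1.64 by edgeR, 1.63 by DESeq2 and 1.06 to 1.73 with libraries left out. With a pseudocount of 5, MT∆Ecad minus PyMT-1099 LT in the siNrf2 effect was 0.97 for Txnip and 0.52 for Arrdc4, and MT∆Ecad minus Py2T LT was 0.79 for Arrdc4. With libraries left out, these differences ranged from 0.91 to 1.77 (Txnip) and 0.47 to 1.14 (Arrdc4) against PyMT-1099 LT, and from 1.23 to 2.09 and 0.74 to 1.41 against Py2T LT. Txnip in siCtl, Py2T LT minus PyMT-1099 LT, was −0.80 and no call with no filter, and −1.07 to −0.54 with libraries left out. Network genes called on average numbered 9 higher with a pseudocount of 5, 3 with no filter, 3 higher and 2 lower by edgeR, 16 and 21 with the block, and 2 to 10 and 3 to 9 with libraries left out. With libraries left out, the siNrf2 effect in Py2T LT ranged from −0.32 to 0.40 for Arrdc3 and from −0.023 to 0.071 for Mlxip; its sign turned without siNrf2 replicate 2 for Arrdc3 and without siCtl replicate 1 for Mlxip. Differences of the effect that turned sign with a library left out ranged from −0.58 to 0.15 for Arrdc3 and −0.077 to 0.30 for Slc2a1 (Py2T LT minus PyMT-1099 LT), and from −0.11 to 0.0085 for Mlx (MT∆Ecad minus PyMT-1099 LT); for the same pair of lines Mlxip had 0.037 by edgeR. The cause was not tested. With the number as a block over the siCtl libraries, no call of the 6 genes between lines changed.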
